A study of Mus musculus with 6 samples.

Results

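Broad accessible domains, in which a single peak interval spans several nucleosomes, were examined in ATAC-seq peak lists of white preadipocytes. A domain was a merged region in which each of the 6 libraries had an interval of at least 1500 bp. The domains were thus selected on the listed widths of the same libraries, without use of genotype. On chromosomes 1 to 19 this rule found 9 domains among 262808 merged regions, of which 97207 had an interval in every library. One further region met the width rule on the sex chromosomes and was not included.

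The libraries came from preadipocytes of mouse inguinal white fat (8- to 12-week-old animals per the study's methods), which were cultured on collagen until day 0, before differentiation medium was added. The labels of the 3 wild type (WT) and 3 double knockout (DKO) libraries all give C57BL/6 as the strain, and the study's reporting summary names the DKO line as B6.Cg-Hmgn2tm1.1Mbus Hmgn1tm1Mbus/Mmjax. DKO mice carry germline deletions of both genes (Hmgn1-/- Hmgn2-/-), so the cells developed in knockout animals. HMGN proteins bind nucleosomes and compete with linker histone, and the study asked how their loss affects chromatin and browning. No label says whether the 3 cultures of a genotype came from separate animals, so p-values measure the spread between these libraries.

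In ATAC-seq the transposase Tn5 inserts adapters where DNA is not wrapped in nucleosomes. Most open sites are single enhancers or promoters about as wide as a nucleosome-free gap. Wide intervals arise where open sites lie so close together that the peak caller joins them, as at promoters in CpG islands, clusters of enhancers and strongly transcribed genes. Imprinting control regions, which are methylated on only one parental copy, can also carry such open stretches. Within an interval MACS2 lists each local maximum as a summit, so a wide interval has several lines.

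The domains fell into 3 kinds by position (GENCODE M21 basic annotation, mm10). Of the 9 domains, 4 (44.4%) held an annotated transcription start site (exact 95% binomial interval 13.7% to 78.8%, counting error only). In 3 others, the domain began within 2000 bp beyond the 3′ end of a protein-coding gene and held no start site. The remaining 2 lay in introns of the imprinted genes Peg3 and Impact. For comparison, a start site was held by 12.9% of the 97207 regions and by 56.8% of the 368 regions with an interval of 1000 bp or more in every library. A position just past a gene end without a start site was found in 2.32% and 3.53% of these regions. These shares are descriptions, since wide regions have more room for any feature.

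The 4 start site domains held 2 divergent pairs of protein-coding genes and 2 long non-coding RNAs. The Nab2/Nemp1 domain (chr10:127666469-127668658) held start sites of Nab2, which encodes a corepressor of EGR transcription factors, and of Nemp1, which encodes a protein of the nuclear envelope. The Mboat7/Tsen34 domain (chr7:3692761-3694363) held those of Mboat7, a lysophosphatidylinositol acyltransferase, and of Tsen34, a subunit of the tRNA splicing endonuclease. The domain named AC141471.3 (chr18:35872921-35874940) held the start site of that lincRNA, lay inside the lincRNA AC141471.1 and began 11233 bp beyond the end of Cxxc5, which encodes a zinc finger protein that binds unmethylated CpG. The 2410080I02Rik domain (chr19:23134043-23136193) held the start of this lincRNA, 5033 bp upstream of Klf9, a Krüppel-like transcription factor.

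The 2 imprinted genes are expressed from the paternal copy. The Peg3 domain (chr7:6727407-6729000) lay in an intron, 1421 bp inside the gene from its start site and 1578 bp from the first base of the neighbouring gene Usp29. Peg3 encodes a zinc finger protein and its differentially methylated region is known for a cluster of binding sites of the factor YY1. The Impact domain (chr18:12973046-12974579) lay 1123 bp from the basic start site of Impact, which encodes an inhibitor of the kinase GCN2. The full annotation places 2 more Impact start sites inside this domain, which raised the share of domains with a start site to 55.6%.

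The domains at gene ends included those of Nr4a1 and F3. The Nr4a1 domain (chr15:101274986-101276937) began 191 bp past the end of Nr4a1, an immediate early gene for a nuclear receptor. The F3 domain (chr3:121735651-121737518) began 603 bp past F3, which encodes tissue factor (CD142), the starter of blood clotting and a surface marker of a subset of adipose progenitors. The nearest annotated start site of the gene lay 8140 bp away for Nr4a1 and 12114 bp for F3.

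For Nr4a1, F3 and 2410080I02Rik, 100 bp to each side of the strongest summit position found in all 6 libraries show what DNA lay under the highest signal. Sequences are from RefSeq GRCm38.p6, plus strand, 5′ to 3′. Capitals mark matches on either strand to the AP-1 consensus TGANTCA and the CTCF consensus.
Nr4a1 domain, chr15:101275791-101275991: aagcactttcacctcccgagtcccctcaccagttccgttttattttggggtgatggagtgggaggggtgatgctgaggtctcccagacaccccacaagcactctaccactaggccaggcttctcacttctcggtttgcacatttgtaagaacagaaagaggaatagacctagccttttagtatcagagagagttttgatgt
F3 domain, chr3:121736614-121736814: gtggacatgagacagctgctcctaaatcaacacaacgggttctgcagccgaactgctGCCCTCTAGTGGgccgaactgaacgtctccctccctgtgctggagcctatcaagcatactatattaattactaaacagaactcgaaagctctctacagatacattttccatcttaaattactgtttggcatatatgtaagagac
2410080I02Rik domain, chr19:23135061-23135261: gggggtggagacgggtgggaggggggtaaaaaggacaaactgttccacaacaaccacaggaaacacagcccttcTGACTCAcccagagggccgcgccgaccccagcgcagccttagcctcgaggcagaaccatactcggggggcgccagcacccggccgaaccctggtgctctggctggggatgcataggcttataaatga

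The window of 2410080I02Rik held an AP-1 match and that of F3 a CTCF match, while Nr4a1 held none of these. With windows of the same length around the median position of each region's highest summit, AP-1 matched in 2 of 9 domains and in 33.3% of the 97207 regions. CTCF matched in 1 of 9 and 4.15%, and the TEAD sequence CATTCC in 2 of 9 and 16.8%. Matches in such small numbers are descriptions.

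Repeats of the Peg3 domain included a commonest exact 12-base word, with 6 copies, and a shorter sequence with 9 copies, shown here with 11 bases on each side. Capitals mark the YY1 core AANATGGC, a shortened consensus that was chosen after the sequence was seen. The longer YY1 consensus that was also searched (the core with G at the open base and GGC after it) matched nowhere in Peg3 or in any other domain.
Peg3 copy, chr7:6727412-6727441: tgtggccaacaAAGATGGCgccagagggag
Peg3 copy, chr7:6727834-6727863: catgacaagtaAAGATGGCgcccaggtggg
Peg3 copy, chr7:6727923-6727952: agctgtcattcAAGATGGCtactgcaccag
Peg3 copy, chr7:6727953-6727982: aaacgtcagcaAAGATGGCgtcaggtgggc
Peg3 copy, chr7:6728252-6728281: agctgtcaatcAAAATGGCaccttcagtga
Peg3 copy, chr7:6728391-6728420: gcctgtcattcAAGATGGCgtctgcaccat
Peg3 copy, chr7:6728440-6728469: tattgctggcaAAGATGGCgccaaattggg
Peg3 copy, chr7:6728728-6728757: atcagccagcaAAGATGGCgtcagggtagg
Peg3 copy, chr7:6728869-6728898: cttggccaggaAAGATGGCgccaggatggg

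All 9 copies read in these letters on the plus strand, whereas Peg3 lies on the minus strand. Peg3 was the only region with 5 or more copies among the 368 regions of 1000 bp or more, of which 67 held the core at least once. The next highest count was 3. The copies lay between 6 and 69 bp from the nearest of the 10 summit positions that all libraries shared, at differing distances.

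Base composition separated the domains. CpG occurrence over expectation was 0.19 at Nr4a1, 0.32 at F3 and 0.32 at Peg3. It was 0.45 at AC141471.3, 0.60 at 2410080I02Rik, 0.68 at Nab2/Nemp1, 0.78 at Impact and 0.87 at Mboat7/Tsen34. Nr4a1 and F3 thus lay around the median of all 97207 regions (0.23), whereas 4 domains reached 0.6, a level often used to define CpG islands. Of the 12-base words of the Impact domain, 50.2% occurred more than once within it, compared with 5.69% at Peg3 and at most 1.21% in the other domains. Words of 50 bases that occur more than once in the genome, copies within the domain included, made up 3.97% of Impact and at most that share of any domain.

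The lists were examined before genotypes were compared. Each held between 299433 and 299620 summits, and the background value that was most frequent, which scales with read number, ranged from 2.05 piled-up fragments in DKO replicate 3 to 2.58 in DKO replicate 1. Intervals of 1500 bp or more numbered 50 to 61 in 5 libraries and 135 in WT replicate 3, whose median interval of 292 bp was the widest (213 to 245 bp in the others). The Hmgn2 start site had a peak in all 3 WT and in none of the DKO lists, with fold enrichment of 7.53 to 9.45 in WT. The Hmgn1 start site had a peak in all 6 (12.6 to 20.1 in WT, 14.4 to 16.3 in DKO), which does not check the label if that site lies outside the deletion. Start sites with a peak in all 6 libraries were those of 5 of 8 preadipocyte, 1 of 5 mature adipocyte, 3 of 6 immune, 1 of 5 endothelial, 0 of 4 epithelial and 0 of 4 muscle markers, against 54.4% of protein-coding genes. An accessible start site does not show expression.

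**Figure D1:**
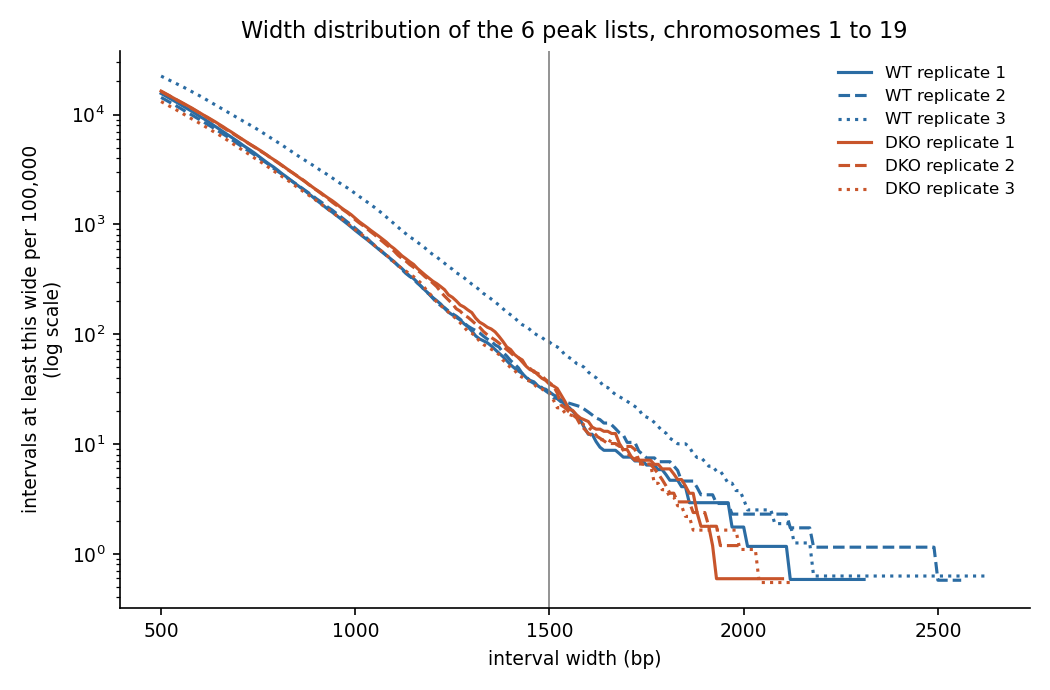
Number of intervals at least as wide as the value on the x axis (bp), per 100000 intervals of the list (log scale), for 3 WT (blue) and 3 DKO (orange) libraries on chromosomes 1 to 19. The vertical line marks 1500 bp; WT replicate 3 lies above the other lists, with 84.7 intervals per 100000 past the line against 28.7 to 36.2.

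Intervals past the width limit were rarely shared. A total of 228 merged regions had one in at least 1 library, 145 of them in 1 library only, and 67 of those in WT replicate 3. Regions past the limit in all 3 WT libraries numbered 17 and in all 3 DKO libraries 15. Members close to the limit had smallest widths of 1518 bp (2410080I02Rik) and 1500 bp (Impact). Just outside were Fosb, an AP-1 gene, with 1470 bp, Vmp1, an autophagy gene, with 1442 bp, and Btg2, an immediate early antiproliferative gene, with 1442 bp. All 3 covered a gene end or began past it, Vmp1 at 530 bp. With 1600 bp as the limit, only Nr4a1 and AC141471.3 would remain.

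Width was first described in each library. It chose the members and was given no test over all 6 libraries. The AC141471.3 domain was the only one of the 9 whose listed widths did not overlap between genotypes. It spanned 1968, 1838 and 1993 bp in WT and 1825, 1799 and 1804 bp in DKO (means 1933 ± 83.2 and 1809 ± 13.8 bp, SD, n = 3 each). Widths without overlap occurred in 12.7% of all 97207 regions, so 1 of 9 is near the background. After scaling of each list to a common width distribution its groups overlapped, with 1891 ± 70.5 bp in WT and 1845 ± 18.2 bp in DKO.

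Width at Nab2/Nemp1 was 1595, 2176 and 2175 bp in WT and 1919, 1992 and 2127 bp in DKO. The low value belonged to WT replicate 1, in which a gap of 241 bp spanned one of the Nab2 start sites. At F3 the widths were 1585, 1588 and 1857 bp in WT and 1849, 1861 and 1599 bp in DKO. Here the 3 narrow libraries were those with a gap of 73 to 87 bp near the gene side, 2 of them WT and 1 DKO. At 2410080I02Rik, 5 libraries lay between 1766 and 1791 bp and DKO replicate 1 at 1518 bp. In those 5 a gap of 67 to 111 bp fell at the downstream end, whereas DKO replicate 1 was split by 99 bp at the opposite side. Covered length at 2410080I02Rik ranged from 2014 to 2049 bp only, so the width at 2410080I02Rik differed by where a short gap fell.

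Another 4 domains had 1 interval in every library and hardly varied. Nr4a1 spanned 1854 to 1932 bp, Mboat7/Tsen34 1554 to 1597 bp, Peg3 1566 to 1589 bp and Impact 1500 to 1534 bp. Group means at these 4 domains differed by at most 10.3 bp, and at Peg3 by 1.00 bp. The widths of these domains, on which they were chosen, were therefore alike in all libraries, WT replicate 3 included. The positions of their edges were not compared.

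**Figure D2:**
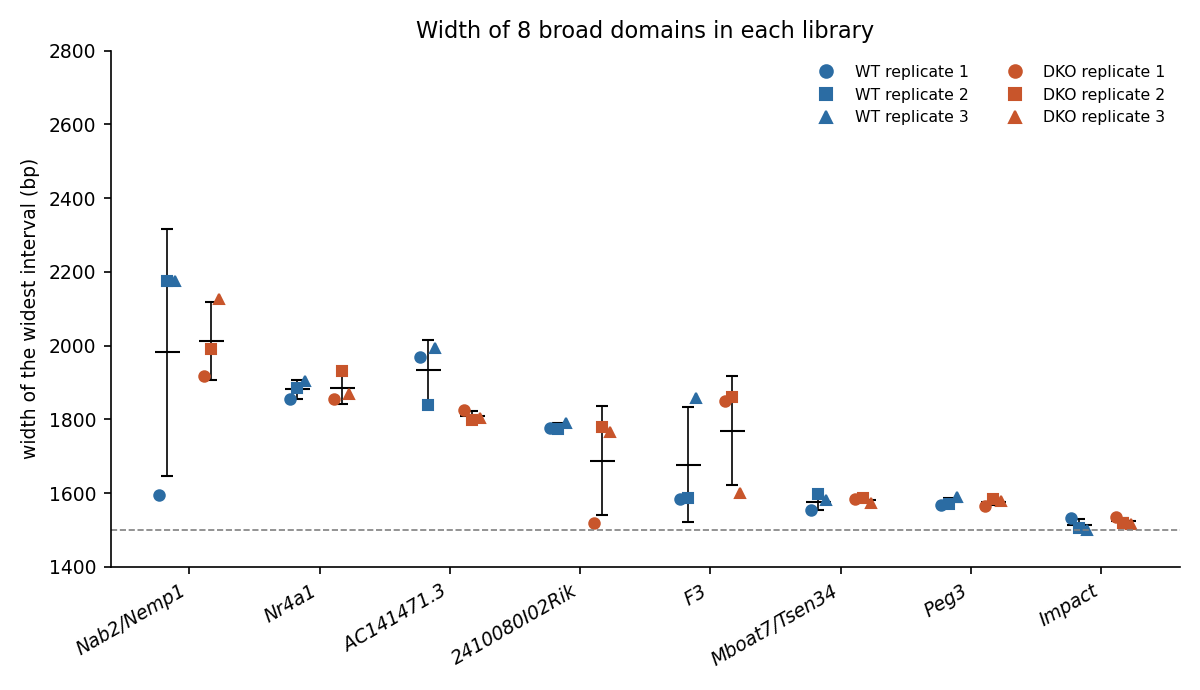
Width (bp) of the widest interval of 8 domains in 3 WT (blue) and 3 DKO (orange) libraries; dashes and bars are mean ± SD and the dashed line is the 1500 bp limit. Nab2/Nemp1 spans 1595 to 2176 bp, while Peg3 stays between 1566 and 1589 bp; the y axis starts at 1400 bp.

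Widths were then set against each list's own distribution, because WT replicate 3 had wider intervals throughout. After quantile normalization of log2 width over the 97207 regions, the median difference of the domains (DKO minus WT) was 0.07, compared with 0.02 for all regions and 0.01 for the 368 regions of 1000 bp or more. The difference was positive in 6 of 9 domains. Without WT replicate 3 it was 0.03. Relative width at Nab2/Nemp1 was 1929 ± 244 bp in WT and 2137 ± 130 bp in DKO, and the groups overlapped. Scaled widths of Mboat7/Tsen34 and Peg3 did not overlap and were higher in DKO by 80.5 and 73.9 bp, and scaled widths without overlap occurred in 12.4% of all regions. Their widths as listed differed by 5.00 and 1.00 bp, so this separation appeared only after scaling.

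A test of width was possible in libraries that had not chosen the regions. Replicate 1 of both genotypes chose 18 regions, the 9 domains among them, and replicates 2 and 3 were compared with limma. None of the 18 passed an adjusted p of 0.05, and of the 97207 regions tested 0.0% did. At an unadjusted p under 0.05, 3 of 18 were narrower in DKO, against 6.23% of all regions in either direction. Among these were 2 regions that are not domains, Lox, a gene for a collagen crosslinking enzyme, and Btg2. For Lox, named after its value was seen, replicates 2 and 3 measured 1874 and 1975 bp in WT and 1353 and 1415 bp in DKO (limma adjusted p = 0.472), whereas replicate 1, which chose the regions, had the reverse order, with 1852 bp in WT and 2109 bp in DKO. Of the 18 regions, 11 were wider in DKO, and the median log2 difference was 0.087, compared with 0.039 for all regions. Without scaling this turned, with 8 of 18 wider in DKO and a median of −0.0071, compared with −0.073 for all regions. Choosing on replicate 2 or 3 gave 0 calls as well (unadjusted 3 of 18 and 4 of 31 regions).

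The number of summits described the inner structure. Peg3 held 12, 12 and 12 summits in WT and 11, 11 and 12 in DKO, and Nr4a1 11, 14 and 12 in WT and 12, 13 and 10 in DKO. Mboat7/Tsen34 held 7 in 5 libraries and 8 in DKO replicate 3. The groups overlapped at all 3. The median over domains was 10.7 summits, compared with 2 over all regions. Per kb of interval, however, domains had 5.70 summits and all regions 5.44. Domains were thus longer, at nearly the same density of summits. The median distance between adjacent summits of an interval ranged from 137 to 171 bp in the 6 libraries, and from 140 to 147 bp in other intervals with at least 3 summits. By domain it was shortest at Peg3 (132 bp) and longest at Mboat7/Tsen34 (254 bp). No spacing was under 70 bp.

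Summit positions recurred. Summits of all libraries were joined in a chain, each within 40 bp of the one before. This gave 124 positions, of which 69 were found in all 6 libraries and 13 in 1 library. The shared positions had a median spread of 15 bp over the libraries and a largest spread of 100 bp, so a chain could join separate summits. Peg3 had 10 shared positions of 13, Mboat7/Tsen34 7 of 8 and AC141471.3 5 of 14. No position was present in all libraries of one genotype and absent from all of the other. Every domain thus had at least 5 summit positions that all libraries of both genotypes shared, while other positions were missing from some libraries.

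Nab2/Nemp1 was the only domain whose numbers of summits did not overlap, with 8, 10 and 10 in WT and 12, 13 and 11 in DKO. Positions 218 and 319 bp from the domain start were found in all 3 DKO but only 1 WT library each, with mean fold enrichment of 2.37 and 2.35, close to the Nab2 start sites at 164 and 242 bp. The 2 highest positions differed in opposite directions as listed. At 583 bp, before the Nemp1 start site, fold enrichment was 7.75, 8.69 and 8.0 in WT and 8.73, 9.76 and 8.71 in DKO. At 1392 bp it was 9.30, 7.86 and 9.89 in WT and 6.99, 7.19 and 7.03 in DKO. Neither position overlapped between genotypes, as was the case for 15.6% of the 136308 summit positions that all libraries shared over all regions, and single positions were given no test. Over regions with at least 3 summits in some library, 3.69% did not overlap in summit number, and 1 of 9 is a single domain. The 2 shares are not like for like, since those regions could hold as few as 3 summits and the domains had a median of 10.7. The median difference over the domains was 0.33 summits (DKO minus WT), with 5 of 9 positive.

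**Figure D3:**
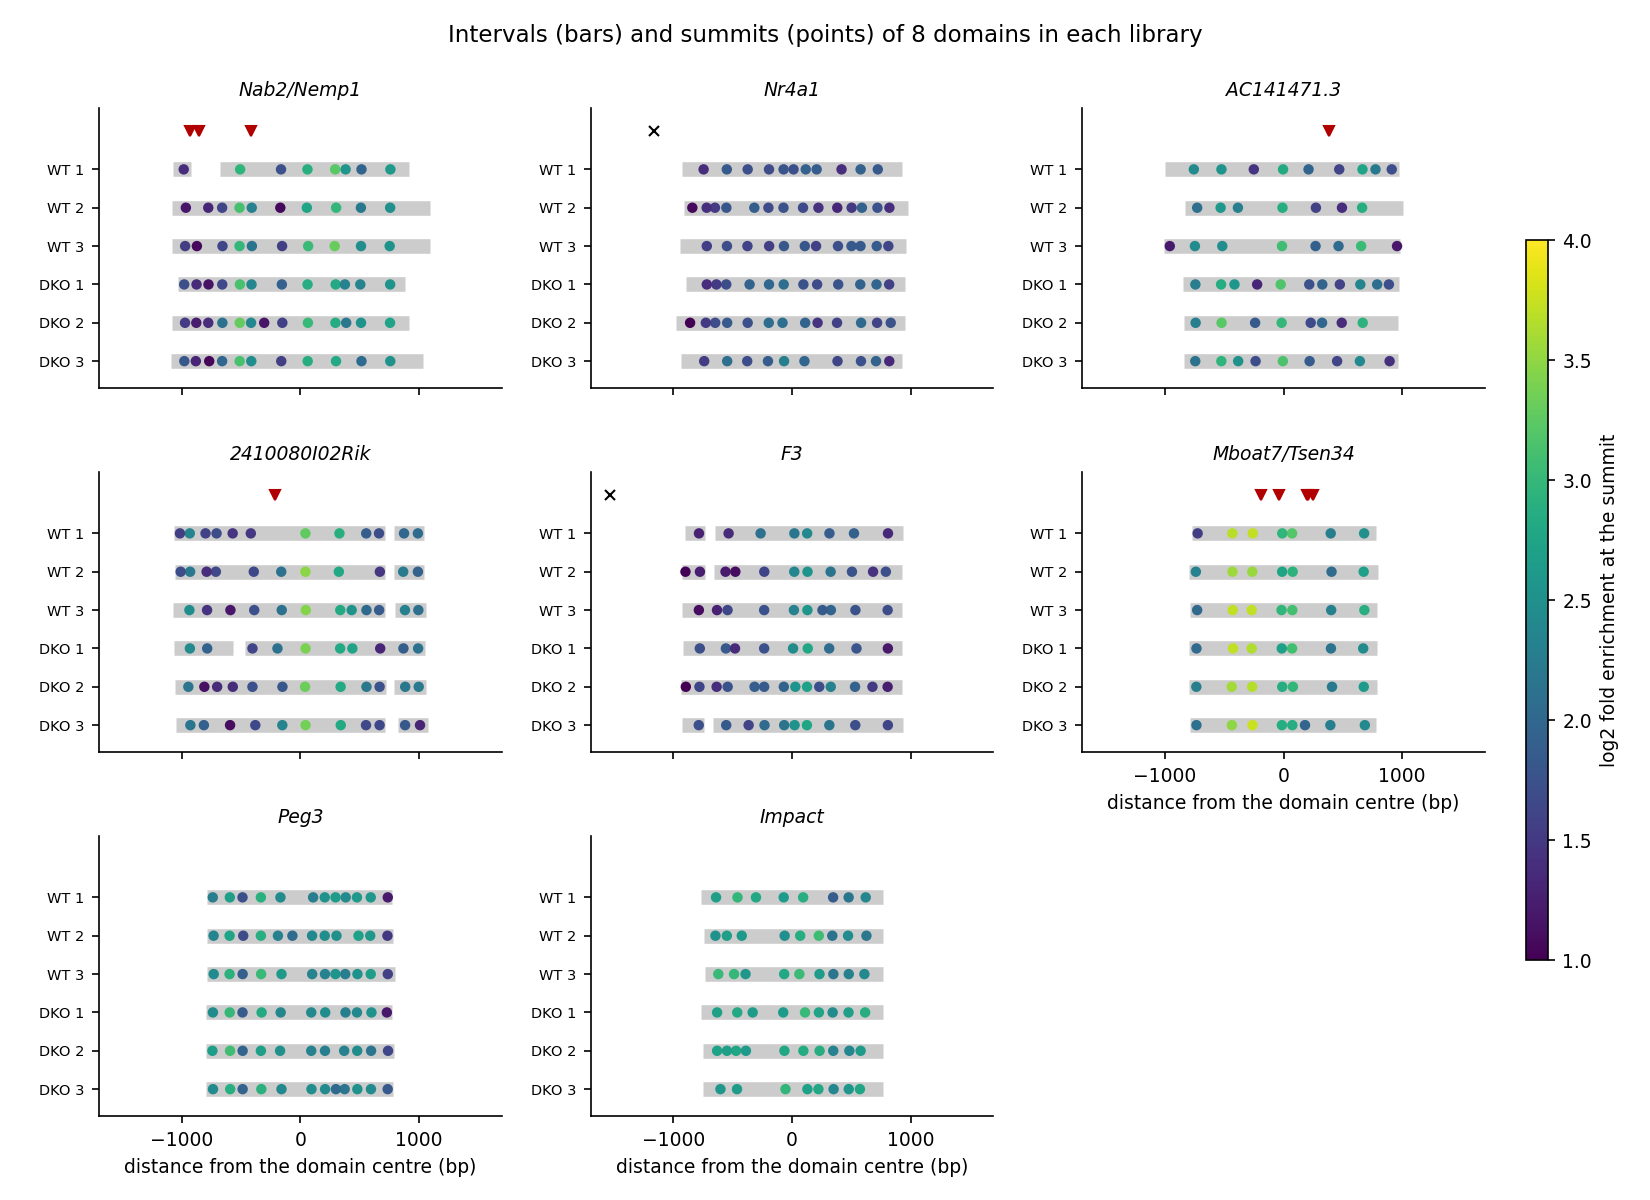
Intervals (grey bars) and summits (points, coloured by log2 fold enrichment) of 8 domains in 6 libraries, as distance from the domain centre (bp) along the plus strand. Red triangles are annotated start sites and crosses the ends of the neighbouring genes; most summits line up between libraries, and short gaps split 2410080I02Rik, F3 and 1 library at Nab2/Nemp1.

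Fold enrichment, which the rule did not use, was compared next. The highest value of a domain was at Mboat7/Tsen34, with 13.2, 11.8 and 13.2 in WT and 13.1, 12.7 and 13.6 in DKO. The lowest was at Nr4a1, with 3.82, 3.86 and 3.61 in WT and 4.20, 4.19 and 4.86 in DKO. Nr4a1 thus ranked between percentiles 2.48 and 30.2 of all regions for fold enrichment in its libraries, and Mboat7/Tsen34 between 72.5 and 88.9. Between them were F3 (5.33 to 6.89), Impact (7.29 to 8.36), Peg3 (7.39 to 8.49), AC141471.3 (7.05 to 9.34), Nab2/Nemp1 (8.69 to 9.89) and 2410080I02Rik (9.65 to 11.1). Nr4a1 and F3 were the lowest of these 8.

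Low fold enrichment at Nr4a1 went with high pileup. MACS2 divides the pileup at a summit by a local background taken from a window around it, which contains the domain itself. Solving its Poisson model returned whole-number pileups (within 0.05) for 100% of the summits solved. At Nr4a1 the highest pileup was 158, 115 and 194 fragments in WT and 148, 149 and 126 in DKO, between percentiles 95.2 and 97.4 of all regions. Its median background of 25.1 to 53.8 lay above percentile 99.8 in every library. Over all summits of the domains, median background was 11.9 to 23.7, compared with 3.03 to 4.13 in other regions, and all summits of the domains lay above the background most frequent in their list, as did 77.2% to 78.6% of other summits. Pileup and fold enrichment thus ranked the same domains far apart. Highest pileups, which are not scaled for depth, overlapped between genotypes in all 9 domains.

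**Figure D4:**
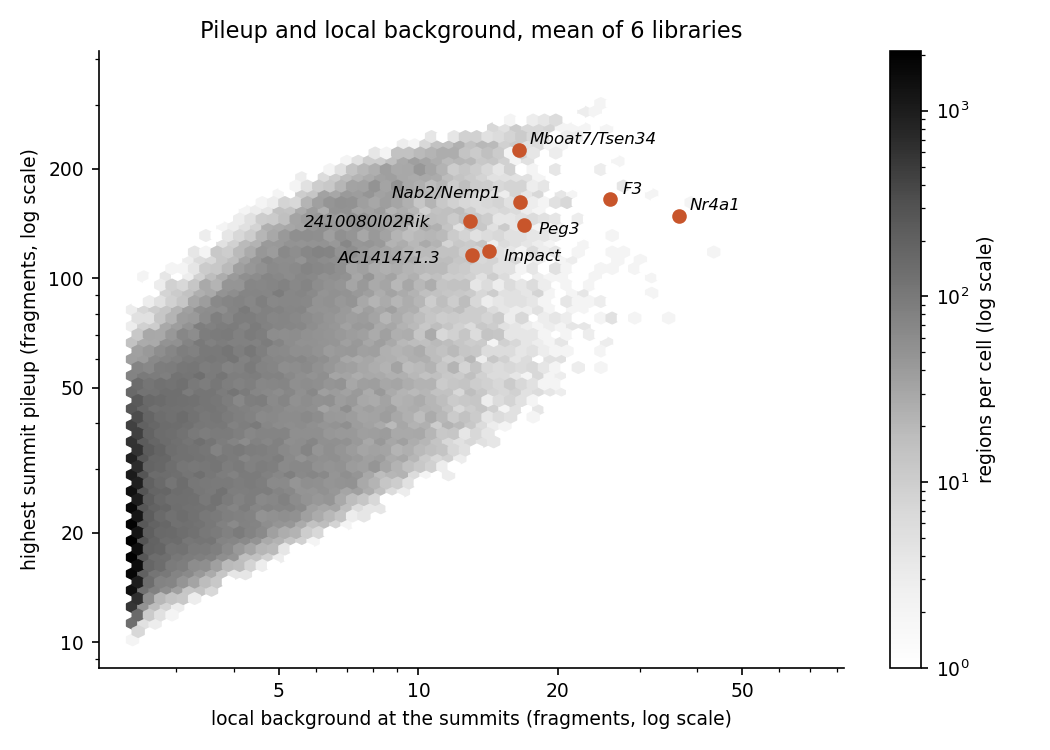
Highest summit pileup of a region against the local background at its summits (piled-up fragments, log scales, mean of 6 libraries), with all 97207 regions as grey cells and 8 domains as orange points. Nr4a1 and F3 have the highest backgrounds among them, and all 8 lie far to the right of most regions.

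The 3 domains with listed fold enrichment higher in every DKO than in every WT library were Nr4a1, F3 and AC141471.3, and none was lower without overlap. At F3 the values were 5.33, 5.86 and 5.97 in WT and 6.89, 6.48 and 6.83 in DKO (means 5.72 ± 0.341 and 6.73 ± 0.222). At AC141471.3 they were 7.05, 7.26 and 8.48 in WT and 9.0, 9.34 and 8.87 in DKO (7.60 ± 0.769 and 9.07 ± 0.242). At Nr4a1 the means were 3.76 ± 0.134 and 4.42 ± 0.382. Among all regions 16.6% did not overlap in listed values. The median over a domain's summits behaved differently. At AC141471.3 it was lower as listed in DKO without overlap (4.73 ± 0.0925 in WT and 4.31 ± 0.0847 in DKO), opposite to the highest summit. In all, 4 of 9 domains did not overlap in this listed median, 3 lower and 1 higher in DKO, compared with 15% of all regions. These directions depended on scaling. After quantile normalization, the log2 difference in the median of the summits was above 0 in all 9 domains and 0.013 at AC141471.3. Of the 8 summit positions of F3 found in all libraries, 4 were higher in every DKO library and none in every WT library, the strongest position included. Over all 9 domains, 14 of 69 shared positions did not overlap, 10 of them higher in DKO and 4 in WT, against 15.6% of positions over all regions. At Peg3 2 of 10 were higher in every WT library and none in every DKO library. The 4 positions at F3 lay 152, 385, 954 and 1064 bp from the gene side of the domain. Highest pileup at F3 was 143, 126 and 216 fragments in WT and 189, 176 and 144 in DKO. These groups overlapped, but the percentile of the pileup within its list was 95.2 to 97.1 in WT and 97.6 to 98.3 in DKO. At AC141471.3 it was 88.0 to 91.3 in WT and 94.0 to 95.5 in DKO. It overlapped at Nr4a1 (95.2 to 96.5 in WT and 96.0 to 97.4 in DKO) and at the other 6 domains, and 19.4% of all regions showed no overlap.

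Lists were put on a common scale by quantile normalization, and genotypes were compared with limma over the 97207 regions. Of these, 624 were called lower and 285 higher in DKO (0.935% in all), and none of the 9 domains was called. At an unadjusted p under 0.05, 1 of 9 domains passed, against 13.2% of all regions. That domain was AC141471.3, with a log2 difference (DKO minus WT) of 0.45 ± 0.18 (SE; limma adjusted p = 0.258). Its adjusted p ranged from 0.0546 to 0.990 over the alternatives, and with the median of the summits its log2 difference was 0.013. F3 differed by 0.41 ± 0.21 (limma adjusted p = 0.405) and Nr4a1 by 0.36 ± 0.20 (limma adjusted p = 0.466). Next were Peg3 (0.26 ± 0.19), Mboat7/Tsen34 (0.21 ± 0.14), Nab2/Nemp1 (0.16 ± 0.17), 2410080I02Rik (0.15 ± 0.16) and Impact (0.12 ± 0.19), with limma adjusted p between 0.552 and 0.847.

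All 9 estimates were above 0 on this scale, as were 305 of the 368 regions of 1000 bp or more and 52.0% of all regions. The direction was thus common to most wide regions. The median of the domains was 0.22, compared with 0.12 for the 368 regions and 0.01 for all regions. The sign depended on scaling. Without scaling, 6 of 9 were above 0, with a median of 0.06 against −0.15 for all regions, and Nab2/Nemp1, 2410080I02Rik and Impact fell below 0. Normalized values did not overlap in 5 of 9 domains (Nr4a1, AC141471.3, F3 and Peg3 among them), all higher in DKO, compared with 17.7% of all regions. WT replicate 3 had the lowest normalized value in 8 of 9 domains, and without it the median was 0.13. In bulk libraries, a change in the share of cells with an open site and a change of openness per cell cannot be told apart.

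**Figure D5:**
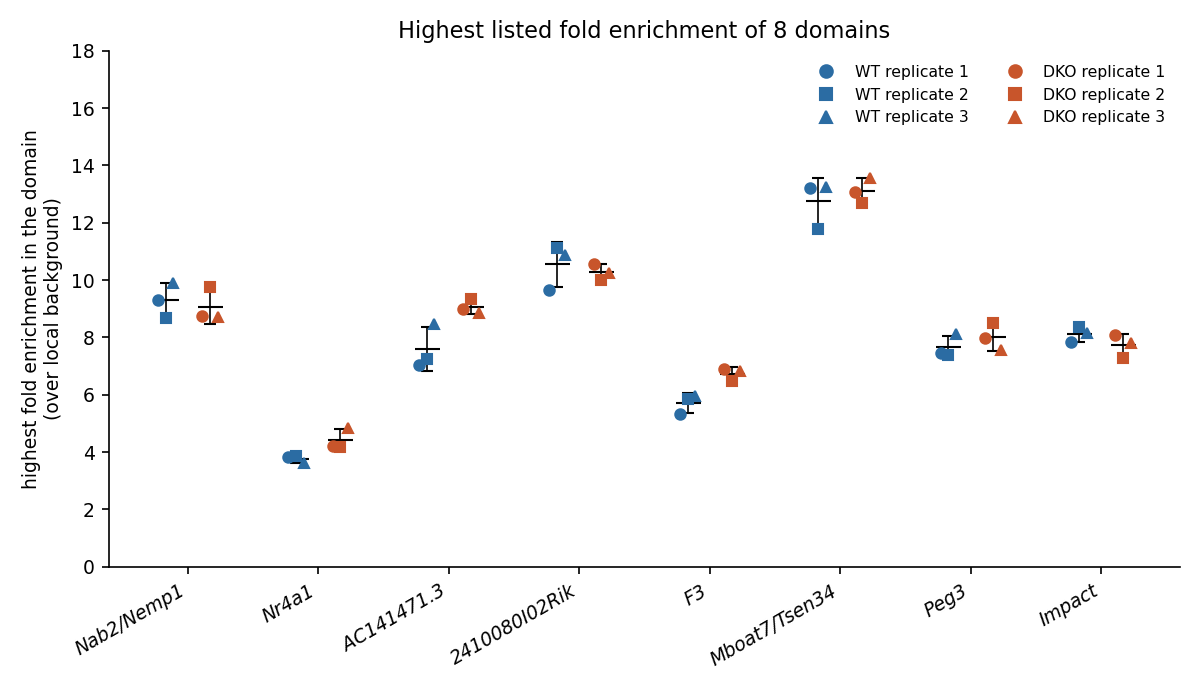
Highest listed fold enrichment (summit pileup over local background) of 8 domains in 3 WT (blue) and 3 DKO (orange) libraries; dashes and bars are mean ± SD. Nr4a1, F3 and AC141471.3 show no overlap between groups before scaling, and none of the 9 domains passes limma's adjusted p of 0.05.

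Gene groups were counted last. None of the genes of the 10 lists had a start site in a domain, where 4 of 20780 protein-coding genes had one (Nab2, Nemp1, Mboat7 and Tsen34). The lists were those of mesenchymal transcription factors (0 of 41), AP-1 and immediate early genes (0 of 26), YAP and TEAD genes (0 of 15), extracellular matrix (0 of 23), actin cytoskeleton (0 of 18), TGF-beta and BMP signalling (0 of 20), brown and beige fat (0 of 14), abundant housekeeping genes (0 of 18), HMG proteins (0 of 7) and Hox genes (0 of 39). Start sites in the 368 regions of 1000 bp or more were held by 4 of 18 actin cytoskeleton genes (Tagln2, Tpm1, Zyx and Vim), 2 of 18 housekeeping genes (Ncl and Ddx5) and 1 of 15 YAP and TEAD genes (Ccn2), against 1.05% of protein-coding genes. Among the same 368 regions, 22 lay over or just past the end of a protein-coding gene without a start site. AP-1 and immediate early genes held 4 of 26 (Btg2, Egr1, Fosb and the member Nr4a1), against 0.10% of 21924 protein-coding genes. F3, Vmp1, Lox and Tnc were also among the 22.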

How the data were processed

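ATAC-seq peaks were taken as listed for each of 6 libraries (3 per genotype). Per the submitters' processing notes the authors used bcl2fastq 2.17, cutadapt 1.18, Bowtie2 2.3.4.3 and MACS2 on mm10. Each deposited list named a limit of 300000 peaks and a p of 0.01 (the study's methods state default settings). The deposited fold enrichment is a ratio of summit pileup to local background, each plus 1. The deposited −log10 p and −log10 q values are MACS2's own. Peaks were called by the authors in each library, and read totals were not analysed here. Intervals were merged by an overlap of at least 1 bp, and lines with the same interval were counted as its summits. Log2 highest fold enrichment was quantile-normalized and fitted with limma 3.58.1 (R 4.3.3; trend, two-sided, Benjamini-Hochberg over 97207 regions, threshold 0.05). Width was fitted likewise in replicates 2 and 3. The fits were tested on simulated data. Sequences and motifs were read from the RefSeq GRCm38.p6 genome with pysam 0.24.0, and both strands were searched. The members and gene lists were chosen with earlier results of these data known. Of the 9 domains 8 are described singly, and the other enters counts and medians but is not reported here. Also named are the 3 regions nearest below the width limit and regions at gene ends of the lists. Alternatives covered scaling, summary value, thresholds, merging, a replicate block and left-out libraries.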

Additional observations from a re-analysis of the deposited data

How the results depend on the processing

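No domain was called in any of the alternatives for fold enrichment, and 114 of 117 values of single domains kept their direction. The number of domains was 368 at 1000 bp, 0 at 2000 bp (which leaves no value for the other results), 5 with exactly 1 interval in every library and 45 by covered length, an alternative chosen after seeing the data. It was 7 with the limit at the same width quantile of each list, where Mboat7/Tsen34, Peg3 and Impact dropped out and Fosb entered. It was 9 to 12 when a library was left out. The median log2 fold enrichment difference was 0.062 without scaling, 0.084 with the median of the summits and 0.10 with the highest −log10 p, and 0.13 to 0.30 with a library left out (0.13 without WT replicate 3). Without scaling, Nab2/Nemp1 (−0.035), Impact (−0.073) and 2410080I02Rik (−0.036) reversed; the all-region median then was −0.15. The median summit difference was −0.17 without DKO replicate 2 and at most 0.33. Calls over all regions depended on the fit, from 624 lower and 285 higher to 136 and 14 without scaling, 144 and 76 without trend, 9 and 7 with the median of the summits, 727 and 813 with −log10 p, 675 and 519 with median centring, and 80 and 52 over 178003 regions listed in at least 2 libraries. They were 160 and 107 without WT replicate 3 and 265 and 113 without WT replicate 1. The causes were not tested. Replicate numbers did not pair the samples (correlations of 0.0056, −0.037 and −0.053). With the replicate block, 0 domains were called, the median stayed at 0.22, and 766 regions were lower and 359 higher. Peak lists without read totals limit precision.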
